A study of Rattus norvegicus with 4 samples.

Results

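The S100 genes encode small calcium-binding proteins, and 10 of them were followed through 4 arrays of rat mammary gland RNA. They were S100a1, S100a4, S100a6, S100a8, S100a9, S100a10, S100a11, S100a13, S100b and S100g, taken as the probe sets (groups of short probes for one transcript) to which the platform annotation gives one of these as the only symbol. All 10 were on the array, each through 1 probe set, among 14217 named genes. The 4 groups had 1 array each. For Sprague-Dawley rats (SDR) there was one array from lactation day 1 and one from involution day 1, when the gland regresses because milk is no longer removed. The other arrays held lactation day 1 glands of Hirosaki hairless rats (HHR), a mutant line bred from Sprague-Dawley stock, either heterozygous or homozygous for the hairless trait. The labels give neither the age of the rats, nor how many animals gave each RNA, nor how long lactation had lasted before involution. No group had a replicate, so no value has an error and no difference was tested. Differences are described by size, and a gene is called higher or lower here when its signals differ at least 2-fold.

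S100 proteins carry a pair of EF-hands, the helix-loop-helix motif that holds a calcium ion, and act mostly as dimers that open a binding face for other proteins when calcium is bound. S100a8 and S100a9 form calprotectin, abundant in neutrophils, monocytes and stressed epithelium, where it withholds metal ions from microbes. S100a10 and S100a11 bind annexins, proteins that attach to membranes. S100a6 and S100a4 are found in stromal and epithelial cells, S100a1 mainly in muscle, and S100b in glia, Schwann cells and adipocytes. S100g is the calbindin of intestine and uterus, where vitamin D or oestrogen control it. In mammary gland, involution brings loss of the secretory state, remodelling of the epithelium and entry of immune cells.

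The start regions of 4 of the 6 members whose sequence was at hand are shown first. S100a11, also higher in involution, and S100a13, without a call, were left out. S100a4, S100a6 and S100a9, which had higher signal in involution, are set beside S100b, which had lower signal. Each is 300 bases of RefSeq assembly GRCr8, from 250 bases before to 50 bases after the annotated start, read in the direction of the gene. The S100a4 region lies at chr2:178388279-178388578 on the plus strand, that of S100a6 at chr2:178398287-178398586 on the plus strand, that of S100a9 at chr2:178490573-178490872 on the minus strand and that of S100b at chr20:12381032-12381331 on the minus strand. Capitals mark matches to TATAAN (the TATA box), GGGCGG (the Sp1 site) and CCAAT (the CCAAT box), searched on both strands.
S100a4: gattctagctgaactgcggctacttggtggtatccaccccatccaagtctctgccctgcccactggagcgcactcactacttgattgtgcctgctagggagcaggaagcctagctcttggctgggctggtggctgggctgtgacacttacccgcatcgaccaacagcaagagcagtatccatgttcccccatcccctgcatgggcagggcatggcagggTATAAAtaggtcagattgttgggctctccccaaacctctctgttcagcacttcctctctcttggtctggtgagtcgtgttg
S100a6: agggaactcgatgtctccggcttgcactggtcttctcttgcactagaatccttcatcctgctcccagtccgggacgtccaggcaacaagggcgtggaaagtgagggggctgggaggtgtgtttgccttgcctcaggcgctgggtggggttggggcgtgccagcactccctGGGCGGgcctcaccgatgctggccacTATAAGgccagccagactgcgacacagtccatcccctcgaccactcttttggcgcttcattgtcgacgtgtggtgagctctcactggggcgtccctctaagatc
S100a9: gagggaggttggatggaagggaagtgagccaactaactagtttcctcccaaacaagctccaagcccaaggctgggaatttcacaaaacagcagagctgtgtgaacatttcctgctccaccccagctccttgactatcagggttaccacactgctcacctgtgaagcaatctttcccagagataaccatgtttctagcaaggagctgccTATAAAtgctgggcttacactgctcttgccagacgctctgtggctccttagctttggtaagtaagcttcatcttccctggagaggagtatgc
S100b: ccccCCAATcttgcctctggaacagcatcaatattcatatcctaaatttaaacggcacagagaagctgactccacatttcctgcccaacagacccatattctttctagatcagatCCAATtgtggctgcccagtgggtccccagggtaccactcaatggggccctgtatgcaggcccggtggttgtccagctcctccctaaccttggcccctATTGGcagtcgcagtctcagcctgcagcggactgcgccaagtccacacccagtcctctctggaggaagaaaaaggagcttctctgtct

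TATAAN was found in S100a4 from base -31, in S100a6 from base -54 and in S100a9 from base -42, counted from the start and all on the gene's strand. It was not found in S100a11, which was also higher in involution, nor in S100a13 or S100b. Of 33469 start regions of that length, 26.2% held this motif. The S100b region held CCAAT 3 times, from base -246 and base -135 on the gene's strand and from base -38 on the other, and S100a13 held it once on the other strand, from base -185. Of all start regions 37.5% held it. S100a6 held GGGCGG from base -80, as did S100a13 from base -82 and S100a11 from bases -64 and -59, which overlap, against 33.1% of all regions. TGANTCA (AP-1, in 7.33% of regions), TTCNNNGAA (Stat factors, 8.87%) and TTGCNNAA (C/EBP, 10.6%) were in none of the 6 member regions available, which are those shown, S100a11 and S100a13. The members not matched were S100a1, S100a8, S100a10 and S100g.

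By the RefSeq gene order, 8 of the 10 members lie on chromosome 2, S100b lies on chromosome 20 and S100g on chromosome X. S100a1 is next to S100a13, S100a8 next to S100a9, and S100a10 next to S100a11. RefSeq also lists 5 pseudogenes and 2 like genes of S100a11 and 1 pseudogene of S100a10. Whether their transcripts add to these probe sets was not tested.

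Signals are MAS5 intensities on a linear scale. A floor of 91.5, the 40th percentile over all arrays, replaced every lower value before ratios were formed, so a ratio with one side at the floor is only a bound. The tissue label was borne out by the milk protein Csn2, with 54651 for SDR lactation, 55859 for heterozygous HHR, 46514 for homozygous HHR and 43743 for involution. The 3′/5′ ratio of Gapdh, which grows with RNA degradation, was lowest in SDR lactation at 1.17 and reached 1.60 in involution, 1.93 in heterozygous and 2.30 in homozygous HHR. The actin ratio lay between 4.60 (SDR lactation) and 7.86 (heterozygous HHR). SDR lactation serves as the reference for 3 of the 4 comparisons, and the part of RNA quality in these differences was not tested.

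**Figure D1:**
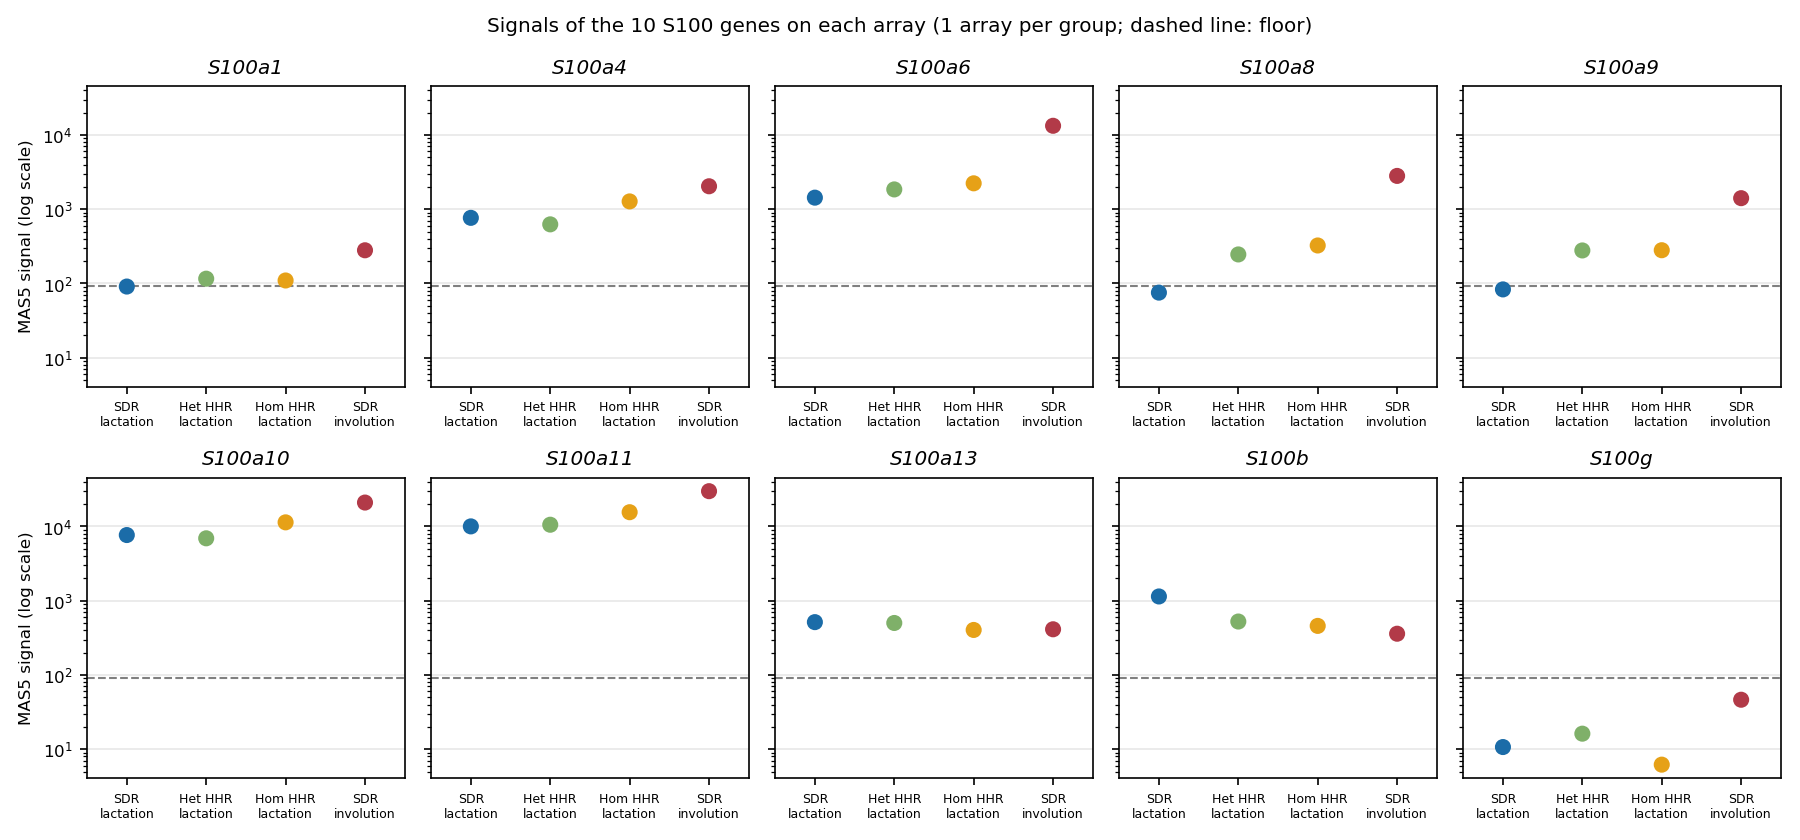
MAS5 signal (log axis) of each S100 gene on each of the 4 arrays, 1 point per array, with the floor of 91.5 as a dashed line. Except for S100a13, S100b and S100g, every member had its highest signal in SDR involution above the floor, and S100g stayed under the floor on all 4 arrays.

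In SDR, 7 of the 10 members were higher in involution than in lactation and 1 was lower. Of all 11014 genes measured in this pair, 10.3% were called higher and 8.94% lower. The higher members were S100a8 (at least 30.7-fold), S100a9 (at least 15.4-fold), S100a6 (9.29-fold), S100a1 (at least 3.06-fold), S100a11 (2.98-fold), S100a10 (2.74-fold) and S100a4 (2.66-fold). S100b was 3.18-fold lower. S100a13 was 1.25-fold lower, short of the limit, and S100g was at the floor in both. The median log2 difference was 1.58 over the 9 members measured in this pair, with S100a1, S100a8 and S100a9 at their bounds, and 0.08 over all measured genes. Among the 6 members above the floor in both arrays, 4 were higher and 1 lower. The share of all genes under that same limit was not computed.

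Against the highest of the 3 lactation arrays, involution was still at least 2-fold higher for 4 members, namely S100a8 at 8.65-fold, S100a6 at 5.95-fold, S100a9 at 5.02-fold and S100a1 at 2.41-fold. Of 11395 genes above the floor in at least 1 array, 3.88% passed this limit. S100a11 reached 1.92-fold, S100a10 1.85-fold and S100a4 1.60-fold. In each of these 3 the nearest lactation array was homozygous HHR. This comparison with all lactation arrays was added after the values were seen.

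Homozygous HHR in lactation had 2 members higher and 1 lower than SDR in lactation. Among 10866 genes measured, 3.77% were called higher and 2.72% lower. Of the 6 members above the floor in both arrays, 0 were higher and 1 lower, with no share of all genes computed under that limit. S100a8 was at least 3.55-fold higher, S100a9 at least 3.06-fold higher, and S100b 2.49-fold lower. Between these lay S100a4 at 1.66-fold, S100a6 at 1.56-fold, S100a11 at 1.55-fold and S100a10 at 1.48-fold, each with more signal in homozygous HHR. S100a1, at the floor in SDR, had 109.7, and S100a13 with 1.27-fold less signal. The median log2 difference of the 9 members was 0.63, and that of all measured genes was 0.02.

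Heterozygous HHR had the same count, 2 members higher and 1 lower than SDR, where 4.58% of 10876 genes were called higher and 4.15% lower. S100a9 was at least 3.04-fold higher, S100a8 at least 2.69-fold higher and S100b 2.18-fold lower. Here too, of the 6 members above the floor in both arrays, 0 were higher and 1 lower, again with no share of all genes computed. S100a1 was at the floor in SDR and had 116 here, and the other 5 members measured differed by at most 1.29-fold, the value of S100a6. Their median log2 difference was 0.07 over the 9 members, against 0.01 over all measured genes. Both HHR comparisons use the same SDR array, so a low or high value on that array enters both.

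Homozygous and heterozygous HHR differed at least 2-fold in 1 member, S100a4, which was 2.04-fold higher in homozygous HHR. Of 10877 genes, 3.76% were called higher and 3.14% lower. S100a10 was next at 1.64-fold, then S100a11 at 1.47-fold and S100a8 at 1.32-fold, all with more signal in homozygous HHR. S100a9 had 280.4 against 278.4. With the floor added to each signal in place of raising low values, the S100a4 difference was 0.93 on the log2 scale and no longer reached 2-fold.

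**Figure D2:**
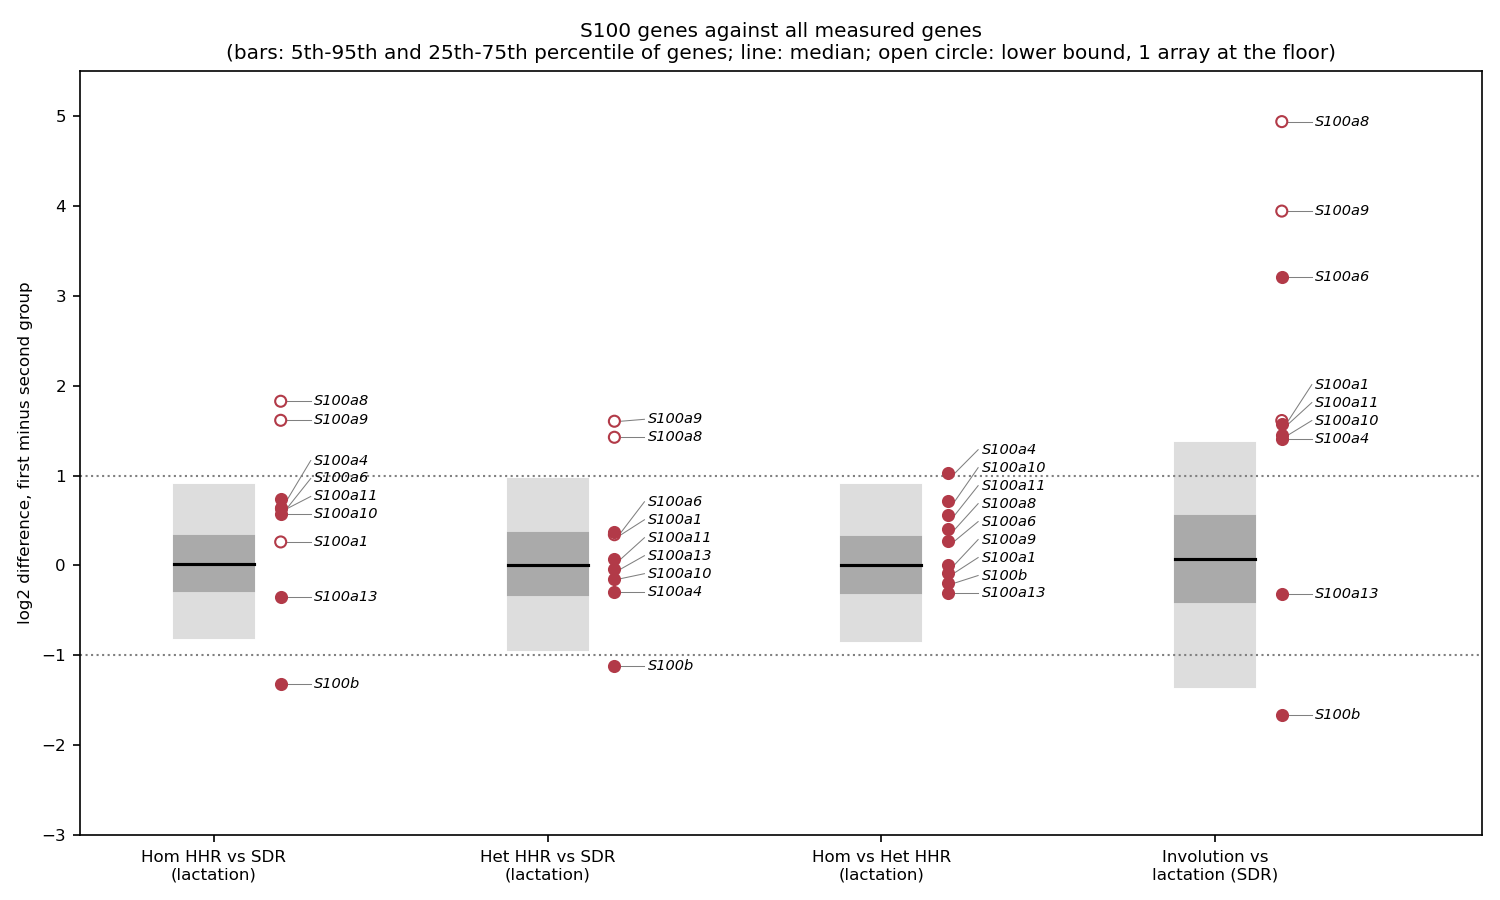
Log2 difference (vertical axis) of the S100 genes in each of the 4 comparisons, 1 point per gene, beside the spread of all measured genes (light bar 5th to 95th percentile, dark bar quartiles, line median). Open circles are lower bounds. In involution 7 genes lie above 1 and S100b lies at -1.67.

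S100a8 and S100a9, the calprotectin pair, had the highest bounds of all members against SDR lactation, whereas against the highest lactation array S100a6 lay between them. S100a8 had signals of 75.3 in SDR lactation, 246 and 324.8 in heterozygous and homozygous HHR, and 2808.6 in involution. Its partner S100a9 had 83.2, 278.4, 280.4 and 1408.5 in the same order. Both were thus under the floor in SDR lactation alone, low but above it in both HHR arrays, and highest in involution. With a floor at the 55th percentile (198.3), their log2 differences from SDR fell short of 2-fold in homozygous HHR (0.71 for S100a8 and 0.50 for S100a9) and in heterozygous HHR (0.31 and 0.49), whereas the involution calls held.

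Markers of the cells in which calprotectin is known were read beside the pair. For each list from here on, the matching shares of all genes are those given above for the same comparison. Of 18 neutrophil markers 14 were on the array, and 6 of these were at the floor in all 4 arrays (Camp, Cxcr2, Mmp9, Itgam, Padi4 and Defa5). In involution 0 of 7 measured neutrophil markers were higher or lower than in SDR lactation, and their median log2 difference was 0.33. The differences ran from -0.16 to 0.95, the latter for Il1b, just short of the limit. Those of Csf3r, Mmp8 and Np4 are bounds, with 1 array at the floor. The list summed to 27914, 17573, 35382 and 33350 in SDR lactation, heterozygous HHR, homozygous HHR and SDR involution, most of it from Lcn2, an antibacterial lipocalin that mammary epithelium also makes. Without Lcn2 the sums were 2298, 1738, 1974 and 2888. The leukocyte gene Ptprc had 709.9 in SDR lactation and 1012 in involution. In homozygous HHR 0 of 7 passed 2-fold (median -0.14), and in heterozygous HHR 1 of 8, Ptprc, was lower (median -0.15). Of 13 measured macrophage markers 0 passed 2-fold in involution (median 0.04). Their differences ran from -0.73 to 0.94, the latter for Adgre1, also just short of the limit. In homozygous HHR 2 were lower and in heterozygous HHR 4, and the list summed to 26923, 14318, 17952 and 24916.

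Skin epidermis, where S100a8 and S100a9 are also known, gave other values. Of its 14 markers 11 were on the array, and 6 of 7 measured ones were higher in involution, with a median log2 difference of 1.52. Of these 6, Krt1, Loricrin, Krtdap and Calml5 were at the floor in SDR lactation and counted as measured through involution alone. Their differences are bounds, and the median is the bound of Krt1. Sbsn, a secreted protein of stratified epithelium, had 223.6 in SDR lactation, 249.6 and 564.5 in heterozygous and homozygous HHR, and 6318.5 in involution, a 28.3-fold difference in SDR. Krt10, a keratin of differentiating epidermis, was 2.63-fold higher and Loricrin, a cornified envelope protein, at least 3.84-fold higher. Only Sbsn, Krt10 and Lce3b were above the floor in both SDR arrays, and Lce3b was without a call. In HHR 1 of 3 measured ones was higher in homozygous and 0 of 5 in heterozygous animals than in SDR. Krtdap, whose signal was low, no longer passed 2-fold when the arrays were centred on their medians or quantile normalized. Ivl, Dsg1, Dsc1 and Serpinb12 were at the floor on all 4 arrays. Summed signals were 1595, 1809, 1924 and 8827, and without Sbsn 1372, 1559, 1360 and 2509. The part of skin, or of any cell type, in the S100a8 and S100a9 values was not tested, and in these bulk samples fewer cells of a type and less RNA per cell cannot be told apart.

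**Figure D3:**
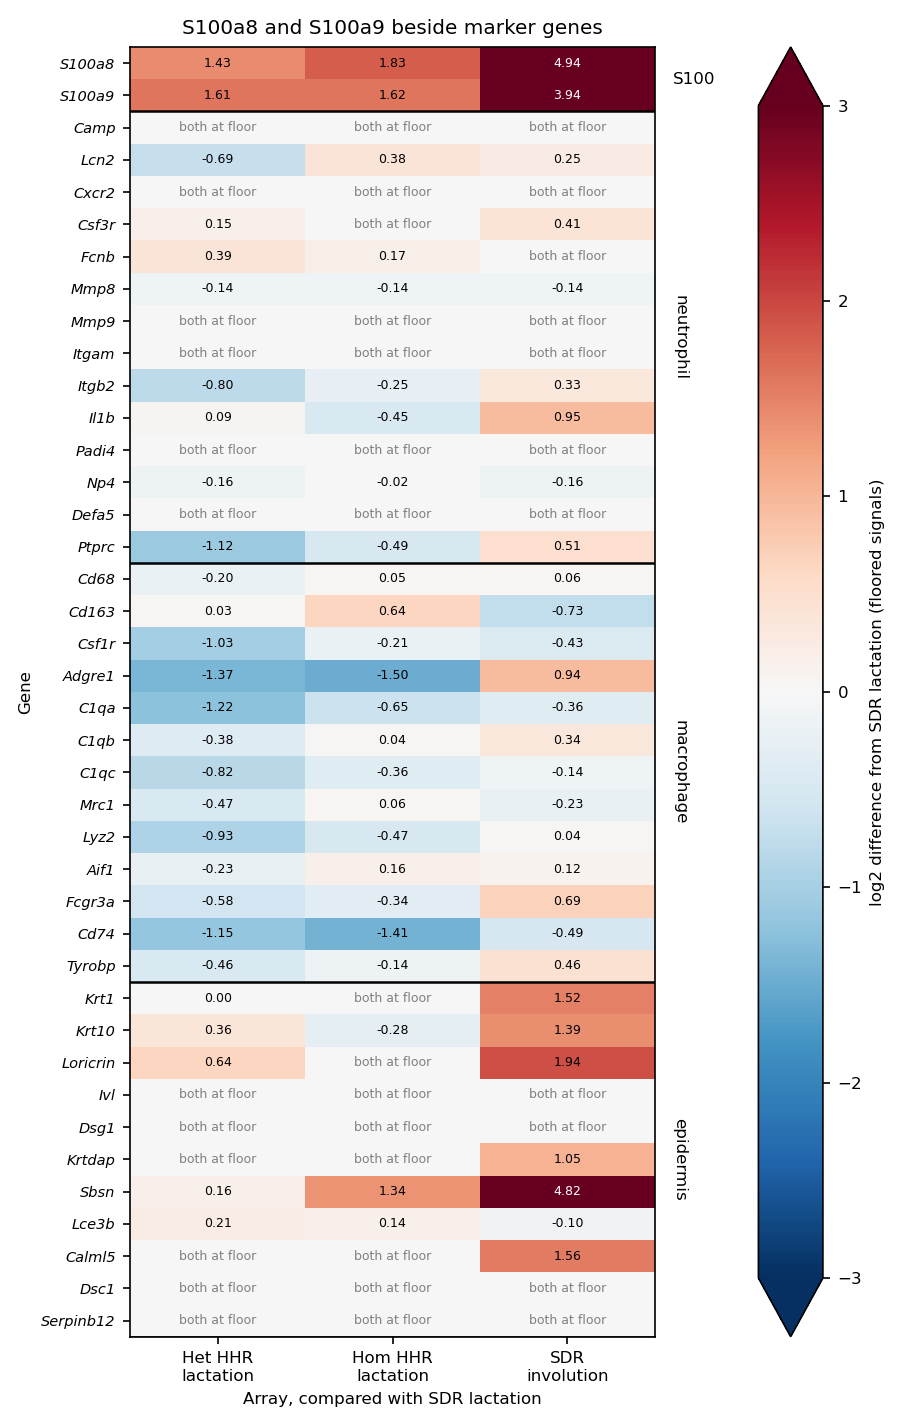
Log2 difference from SDR lactation (colour, and number in each cell) of S100a8, S100a9 and the neutrophil, macrophage and skin epidermis markers on the other 3 arrays, computed on floored signals. The S100 pair reads 4.94 and 3.94 in involution, where no neutrophil or macrophage marker passes 1 and 6 epidermis markers do. Krt1, Loricrin, Krtdap and Calml5, like the S100 pair, were at the floor in SDR lactation, so their values there are bounds.

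Receptors of secreted S100 proteins did not follow one direction. Cd14, a co-receptor of Tlr4, had 5985 in SDR lactation, 4533 and 16494 in heterozygous and homozygous HHR, and 20076 in involution. It was 3.35-fold higher in involution and 2.76-fold higher in homozygous HHR than in SDR lactation. Ly96, the other co-receptor of Tlr4, had 4811, 2732, 3232 and 1567 and was 3.07-fold lower in involution, and Bsg, a receptor for S100a9, was 2.57-fold lower there. Tlr4 itself, through which calprotectin signals, had 262.5, 359.8, 549.8 and 272.5 and was 2.09-fold higher in homozygous HHR than in SDR. Ager, the receptor for advanced glycation end products, was 2.11-fold higher in heterozygous HHR than in SDR. Cd36, a scavenger receptor and fatty acid carrier, differed by -4.52 on the log2 scale in involution, and was 4.36-fold lower in homozygous and 2.23-fold lower in heterozygous HHR.

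The annexin-binding members S100a10 and S100a11 had like patterns. S100a10, which joins Anxa2 in a complex at the cell membrane that binds plasminogen, had signals of 7661.7 in SDR lactation, 6924.1 and 11357.9 in heterozygous and homozygous HHR, and 20983.5 in involution. S100a11, a partner of Anxa1, had 10021.9, 10548.1, 15555.9 and 29863.5. For both genes SDR and heterozygous HHR lay close, homozygous HHR lay between, and involution was highest. After each gene was centred on its mean over the 4 arrays, the root mean square difference of their log2 signals was 0.08, and S100a11 was the 8th closest of 11394 genes to S100a10.

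Their annexin partners were read from the list of S100 receptors and binding partners. Anxa1, a membrane-binding protein of the anti-inflammatory response, had 2335 in SDR lactation, 2345 and 12821 in heterozygous and homozygous HHR, and 33255 in involution. That was a 14.2-fold difference between involution and lactation in SDR, and a 5.49-fold difference between homozygous HHR and SDR. Anxa2 had 3893, 3187, 2973 and 12451, and was 3.20-fold higher in involution with no call in HHR. Anxa5 was 1.49-fold higher in involution, short of the limit.

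S100a6, a growth-associated member, had signals of 1431 in SDR lactation, 1847.4 and 2232.1 in heterozygous and homozygous HHR, and 13291.7 in involution. The 3 lactation arrays lay within 1.56-fold of each other, and involution stood apart from all of them. Sugt1, a co-chaperone that binds S100a6, had 1768, 1894, 2763 and 5176 and was 2.93-fold higher in involution. Some other genes in the list of S100 receptors and binding partners were without calls there. Among these were Cacybp (1.14-fold higher), Anxa11 (1.21-fold higher) and Ppp5c (1.18-fold lower). The list had 4 of 23 measured genes higher and 4 lower.

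S100a4, known for binding the non-muscle myosin Myh9 and for its level in motile and stromal cells, had signals of 765.2 in SDR lactation, 625.3 and 1273.5 in heterozygous and homozygous HHR, and 2037.2 in involution. Here heterozygous HHR was the lowest array. Fibroblast markers, which S100a4 often accompanies, had 1 of 13 higher (Fn1, no longer with median centring) and 1 lower in involution (median log2 difference -0.18). Between homozygous and heterozygous HHR 1 of 13 was higher, and the median was 0.48. The fibroblast list summed to 94058, 64654, 92502 and 79488 in the usual order of arrays, lowest where S100a4 was lowest, but not highest in involution. Its part in the S100a4 values was not tested.

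The neighbours S100a1 and S100a13 had different patterns. S100a1, a regulator of calcium release in muscle, had 90.9 in SDR lactation, just under the floor, 116 and 109.7 in heterozygous and homozygous HHR, and 279.9 in involution. At a floor of 198.3 its involution difference was 0.50 on the log2 scale and was no longer a call. S100a13, which helps release Fgf1 from cells without a signal peptide, had 514.7, 501.4, 403.9 and 412.4. It spanned 1.27-fold over the 4 arrays, and no other member above the floor spanned less than 2-fold.

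S100b was the only member with lower calls. Its signal was 1140.9 in SDR lactation, 524.4 and 458 in heterozygous and homozygous HHR, and 359.3 in involution. SDR lactation thus stood above the other 3 arrays, which lay between 359.3 and 524.4. Of the nerve and Schwann cell markers, 10 of 12 were on the array, with Gfap and Ngfr at the floor in all 4 arrays. In involution 2 of 8 measured ones were higher and 1 lower (median log2 difference 0.63). Cnp, an enzyme of myelin, was 2.37-fold higher, the transcription factor Egr2 2.12-fold higher, a call lost under median centring and quantile normalization, and the transcription factor Sox10 was 3.07-fold lower (3899 against 1272). In homozygous HHR 1 of 7 was higher and 0 lower, and in heterozygous HHR likewise (Prx, a call that either scaling ended). This list summed to 8054 in SDR lactation, 7501 and 8104 in heterozygous and homozygous HHR, and 8819 in involution, an order unlike that of S100b.

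Adipocyte markers were read beside S100b as well. In involution 3 of 10 measured ones were lower and 0 higher (median -0.75), and the list summed to 34064, 22294, 25819 and 10843 in the usual order, with Lep at the floor throughout. Without Fabp4 the sums were 10133, 12787, 15935 and 5706, so the HHR arrays lay above SDR lactation, unlike S100b. Fabp4, a fatty acid binding protein, had 23931, 9507, 9885 and 5137, which like S100b was highest in SDR lactation and lowest in involution. In HHR the list had calls both ways, with 2 of 10 lower and 1 higher in homozygous HHR (median 0.65) and 2 lower and 2 higher in heterozygous HHR (median 0.44), where the higher call of Cidec was lost under either scaling. With median centring Cfd and Plin1 were also lower in involution, which makes 5 of 10. Whether fat content bears on S100b was not tested.

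S100g had signals of 10.7 in SDR lactation, 16.2 and 6.2 in heterozygous and homozygous HHR, and 46.4 in involution. All lay under the floor, so its values have no order and no fold is given. The vitamin D receptor Vdr, through which S100g is induced in intestine, had 458.6, 283.2, 199.8 and 290.2 and was 2.30-fold lower in homozygous HHR than in SDR.

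Of 18 genes of vitamin D action and calcium transport, 14 were measured in the involution pair, with 1 higher and 3 lower (median -0.31). Atp2b2, which pumps calcium across the apical membrane into milk, had 1793.9 in SDR lactation, 2706.5 and 385.7 in heterozygous and homozygous HHR, and 77.0 in involution, at least 19.6-fold lower. Atp2c2, a Golgi calcium pump, was 6.05-fold lower and the channel Trpv5 3.35-fold lower, whereas the plasma membrane pump Atp2b1 was 2.66-fold higher. Homozygous HHR had 2 of 13 lower, Atp2b2 and Vdr, and 0 higher, and heterozygous HHR had no call in 13.

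In the list of receptors and binding partners as a whole, 4 of 23 measured genes were higher and 4 lower in involution (median log2 difference 0.09, against 0.08 for all genes). Homozygous HHR had 4 higher and 1 lower than SDR (median 0.10), and heterozygous HHR 2 higher and 2 lower (median 0.01). In homozygous against heterozygous HHR 3 were higher and 0 lower. These were Anxa1 at 5.47-fold, Cd14 at 3.64-fold and Plat, the tissue plasminogen activator, at 2.22-fold.

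**Figure D4:**
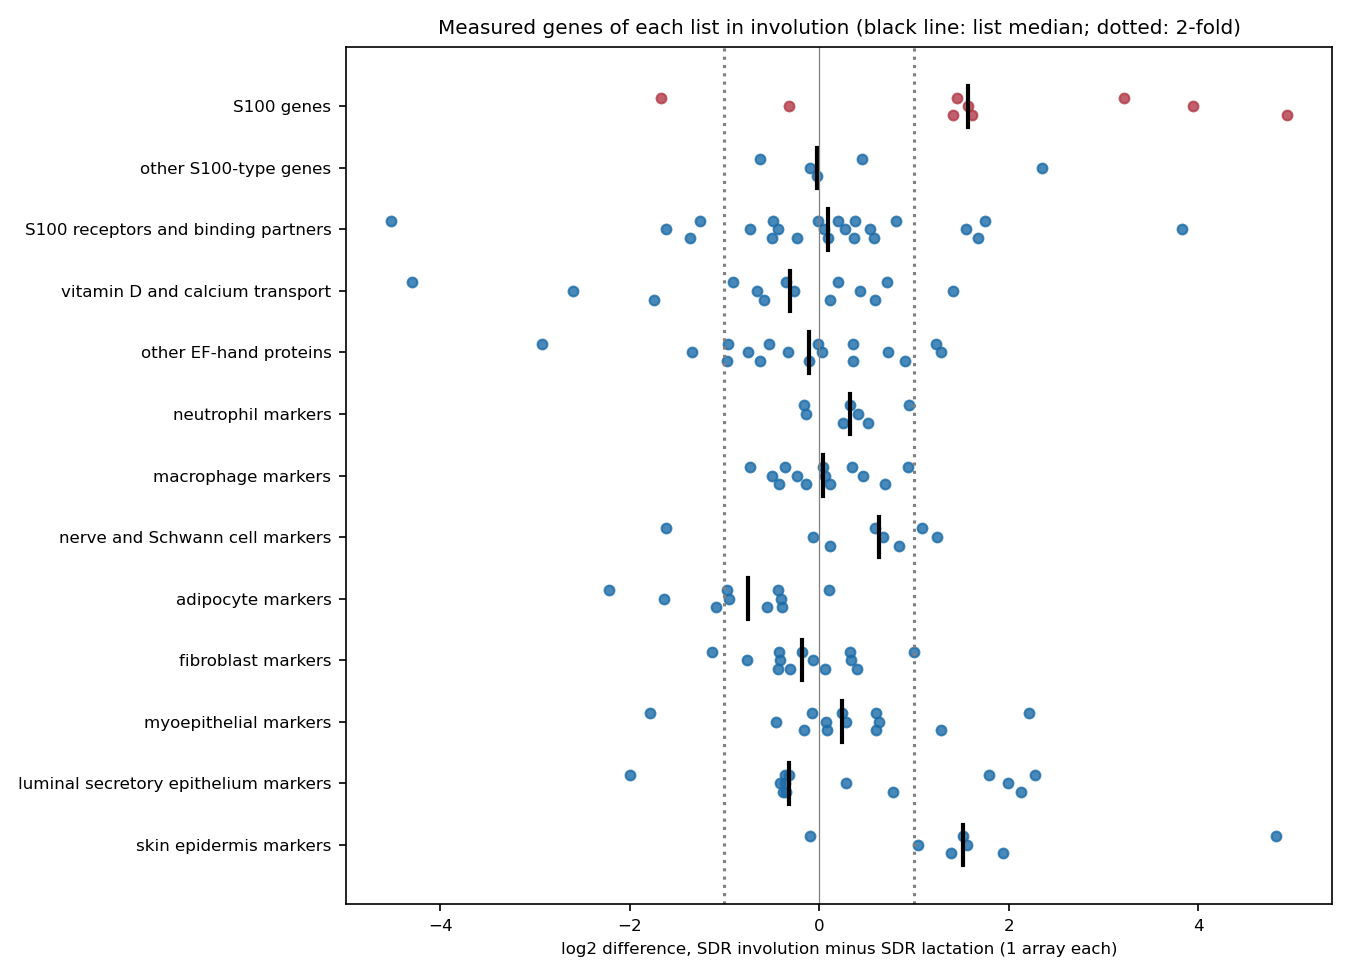
Log2 difference between SDR involution and SDR lactation (horizontal axis) for every measured gene of the S100 set and of each list, 1 point per gene at its value or bound, with the list median as a black line. The S100 median of 1.58 lies beside 0.09 for receptors and binding partners, -0.31 for vitamin D and calcium transport and 1.52 for skin epidermis markers. The skin median is the bound of Krt1, which was at the floor in SDR lactation.

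Other genes of S100 type were mostly without calls. Of 19 such genes listed 8 were on the array and 5 were measured in the involution pair, 4 of them above the floor in both arrays and Tchh in lactation only. These counts include S100pbp, which is named for binding an S100 protein and is not itself an S100 gene. It had no call. S100a14, an epithelial member, was 5.09-fold higher in involution, and its second probe set gave 5.08-fold. Its signals were 2851 in SDR lactation, 3132 and 3128 in heterozygous and homozygous HHR, and 14524 in involution, so the lactation arrays lay together. S100a16 had 7059, 5521, 5293 and 9646, a 1.37-fold difference in involution. S100a3, a member of the hair cuticle, had 220.7, 94.5, 144.1 and 216.6 and was 2.34-fold lower in heterozygous HHR than in SDR. That heterozygous signal lay just above the floor of 91.5. In homozygous HHR S100a3 was 1.53-fold lower, short of the limit.

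The genes closest in pattern to each of the 8 members that spanned at least 2-fold, which leaves out S100a13 and S100g, were found over the 4 arrays by the root mean square difference of centred log2 signals, among 11394 others. With 4 arrays many genes can lie close by this measure, which used floored signals. Of the genes named below, Cdh16, RT1-A, Cxadr, Sh3pxd2b, Sema3e and Kctd4 were under the floor on at least 1 array. Their closeness rests in part on the floor. Cdh16 had 9.7 and 73.8 in SDR and heterozygous HHR lactation, and Sema3e had 42.8 and 60.8. Within 0.25 of S100a11 there were 355 genes, of S100a10 348, of S100a1 385, of S100a4 223 and of S100b 96, but only 12 were that close to S100a6 and 1 each to S100a8 and S100a9. Closest to S100a6 was Gch1, at 0.10, followed by Cdh16 (0.13) and Xpc (0.17). Gch1, the first enzyme of tetrahydrobiopterin synthesis, had 101.8, 116.9, 142.5 and 989.1. Closest to S100a8 was RT1-A, at 0.22, which was also closest to S100a9, at 0.25. RT1-A belongs to a family of near-identical class I genes that probe sets may not tell apart. Next came Mt2A and Dmkn for S100a8 (0.27 and 0.29) and Pdlim5 and Cxadr for S100a9 (0.28 and 0.31).

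S100a11 was closest to Sugt1, at 0.02, then to Sema3e and Paqr6. S100a10 was closest to Cutc, at 0.04, then to Wdr81 and Sema3e. For S100a4 the order was Atg14 (0.03), Cd1d1 and Tmem140, and for S100a1 it was Sesn2 (0.04), Pigu and Sh3pxd2b. S100b, with the opposite course, was closest to Kctd4 (0.10), Msra (0.11) and Sf3b5 (0.11). Of the members themselves, S100a10 differed by 0.11 from S100a4 and by 0.08 from S100a11. S100a8 and S100a9 differed by 0.45, but few genes lay near either. S100a9 was the 6th closest of 11394 genes to S100a8, and S100a8 the 11th closest to S100a9.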

How the data were processed

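Rat mammary gland RNA was measured on 4 Affymetrix arrays, 1 per group. The deposited values are MAS5 intensities per probe set on a linear scale, scaled by the authors (the mean without the lowest and highest 2% was about equal on all arrays). Per the submitters' processing notes the software was MAS5, and the sources used here do not give its version or settings. Groups came from the labels, and 0 columns stayed unmapped. Protein sequences were not used here.

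Of 31099 probe sets 57 were controls and 20826 had 1 symbol. Signals under the pooled 40th percentile (91.5) were raised to it, and of several probe sets per gene the brightest on average (log2) was taken. Differences are log2 ratios, called at 2-fold. With 1 array per group no test was possible, and the number of arrays limits the precision. The members and the 12 lists were chosen with earlier results of these data known. List genes were named by brightness, up to 4 past 2-fold and 2 short of it, or by closeness of pattern to a member (3 each). Krtdap, Ly96, Bsg, Tchh, the fifth luminal call and the genes gained under another scaling were named after their values were seen. So were Krt1, Cacybp, Anxa11, Ppp5c, Il1b, Adgre1, Csf3r, Mmp8 and Np4. Alternatives were median centring, quantile normalization, floors at the 25th and 55th percentiles, the mean over a gene's probe sets, the floor added as a pseudocount, and limits of 1.5-fold and 3-fold. The steps up to the log2 ratio were run on a copied array with planted, noise-free fold changes, which checks the arithmetic only. Bounds at the floor, the other scalings, closeness of pattern and the motif search were not checked in this way. Python 3.11.15 and pandas 2.3.3 were used.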

Additional observations from a re-analysis of the deposited data

How the results depend on the processing

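The differences of single members, 213 values over 6 alternatives, kept their direction, and 6 no longer passed 2-fold, 5 of them at the 55th percentile floor and 1 with the floor as a pseudocount. That higher floor left 1 member different (S100b) in homozygous HHR against SDR and 1 in heterozygous HHR against SDR, where the signals of S100a8 and S100a9 were less than 2-fold above it. The pseudocount left 0 in homozygous against heterozygous HHR. A 3-fold limit left 5 members in involution, 1 in heterozygous HHR against SDR and 0 between the HHR arrays. In homozygous HHR against SDR it left S100a8 and S100a9, both as bounds. A 1.5-fold limit gave 6 in homozygous HHR against SDR and 2 between the HHR arrays. The share of all genes past these 2 limits was not computed, so these counts have no background beside them. Median centring and quantile normalization changed no member's call, although centring moved the median of all genes in involution by -0.13 on the log2 scale. Among list genes called at 2-fold they turned no direction, but over all 143 list genes measured in involution median centring turned 11 and quantile normalization 8, each from a difference of at most 0.36. Median centring also added 5 list calls in involution (Cfd, Nucb1, Orai1, Plin1 and Rcn3) and 1 between the HHR arrays (Dcn). Quantile normalization added 3 in involution (Epcam, Plin1 and Rcn3) and 1 in homozygous HHR against SDR (Acta2). Each member had 1 probe set, so the mean of all probe sets gave the same values. No paired analysis was possible because each group has 1 array. S100g could not be read, as its signal was under the floor on all 4 arrays.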

Other observations

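Other EF-hand proteins had calls both ways in involution, with 2 of 17 measured genes higher and 2 lower (median -0.11 on the log2 scale). These shares were near those of all genes, 10.3% higher and 8.94% lower. With median centring Nucb1 and Rcn3 were lower too, which makes 4 lower, and with quantile normalization Rcn3 was. Ocm, oncomodulin, had signals of 2035 and 2573 in lactation of SDR and heterozygous HHR, 769 in homozygous HHR and 268 in involution, and was 7.61-fold lower in involution and 2.65-fold lower in homozygous HHR than in SDR. Calu, a calcium-binding protein of the secretory pathway, was 2.54-fold lower in involution. Sri, sorcin, was 2.35-fold higher and Efhd1, a mitochondrial protein, 2.44-fold higher. Efhd1 had 1031 in SDR lactation and 295 in heterozygous HHR, 3.49-fold lower there, against 1086 in homozygous HHR. The calmodulin gene Calm2 had 18044, 14877, 12112 and 11679 and passed 2-fold in no comparison.

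Keratins and Cdh1 of the luminal epithelium list were higher in involution together with the S100 genes. Krt8 was 4.37-fold higher, Krt18 3.46-fold, Krt19 4.84-fold and the cadherin Cdh1 3.97-fold, while the milk gene regulator Elf5 was called lower. These were the 5 calls among 13 measured genes of that list. In homozygous and heterozygous HHR 0 of 13 were called against SDR. Of 13 measured myoepithelial markers 2 were higher and 1 lower in involution (median 0.24), 3 and 1 in homozygous HHR (0.61) and 2 and 1 in heterozygous HHR (0.69).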
